A study of Mus musculus with 3 samples.

Results

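The ligands, receptors and SMAD proteins of the TGF-beta and BMP pathways, with their secreted antagonists, were examined in 3 fractions of mouse epididymal fat. Members were chosen by gene symbol alone, as every gene on the arrays that carries the name of a TGF-beta, activin or inhibin subunit, BMP, GDF, myostatin, receptor of these ligands, SMAD, gremlin, noggin, follistatin, follistatin-like protein or Bambi. This gave 59 genes with 98 probes, of 37073 genes with 56602 probes read in all. They are 29 ligands, 13 receptors, 8 SMADs, 5 antagonists, 3 follistatin-like genes and the protease gene Bmp1. The mice were male C57/BL animals, 20 weeks old by the labels, with no transgene or drug treatment in any group, and their epididymal fat was dispersed with collagenase. Stromal vascular cells (SVC) were the lower phase of a first spin at 9 g for 1 s. The floating cells were spun again at 226 g for 3 min, which left mature adipocytes (MA) on top and small proliferative adipocytes (SPA) in the sediment. SVC and SPA were then grown in DMEM to 90% confluency, whereas no culture is described for MA, so that culture cannot be told apart from cell type wherever MA is compared. Total RNA of each group, 50 ng, was labelled with Cy3 and hybridised to 1 Agilent 1-colour array, and the study used these arrays to explore what characterises SPA. The titles of the samples carry 1 date for SVC and SPA and a later one for MA, which follows the same split as the culture, and the labels do not say how many animals each sample holds.

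TGF-beta family ligands are secreted dimers that bring a type I and a type II receptor together at the cell surface. The type I receptor then phosphorylates a receptor-regulated SMAD, which is SMAD2 or SMAD3 for TGF-beta and activin and SMAD1, SMAD5 or SMAD9 for BMPs, and this SMAD enters the nucleus with SMAD4. Noggin and gremlins bind BMPs, follistatin binds activins, and SMAD6, SMAD7 and the pseudoreceptor BAMBI dampen the signal inside or at the cell. In adipose tissue, TGF-beta and activin A are known to restrain the differentiation of preadipocytes, and BMP2 and BMP4 are known to favour commitment to the adipocyte lineage.

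Each group had 1 array, so no difference has a replicate check, no p-value is given, and a ratio compares 3 RNA samples and not 3 conditions. Levels are log2 signals with the array's own 75th percentile as 0, and they are compared between arrays for the same probe and not between genes. A probe that the scanner software did not mark as well above background has only a bound there, and "at least" before a fold marks a ratio against such a bound. Between 58.6% and 61.4% of the spots were well above background on each array. Probes spotted 10 times varied by a median SD of 0.04 to 0.05 log2 within an array, which leaves out the spread between animals or cultures. The adipocyte marker Adipoq, the adiponectin gene, had log2 levels of 8.44 in MA and 1.56 in SPA and only a bound in SVC. The 8 adipocyte markers, summed in multiples of the 75th percentile, reached 2330 in MA, 41.3 in SPA and 3.85 in SVC. All 5 erythrocyte markers were well above background in MA, with a summed level of 679 against 0.32 in SVC and 0.355 in SPA, and 6 endothelial markers summed to 29.6 in MA against 2.13 and 2.46. In bulk RNA, fewer cells of a type and less RNA per cell cannot be told apart.

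Well above background were 48 of the 59 members in SVC, 50 in SPA and 48 in MA, and 43 on every array. This is 72.9% of the members on all 3 arrays, against 53.6% of all genes. The 7 genes that no array measured well above background were Inhbc, Bmp8b, Bmp15, Gdf2, Gdf7, Mstn (myostatin) and Fstl5. Among the members, most SMADs, type II receptors and TGF-beta receptors were measured on every array at levels that lay close together. The wide gaps were found among ligands, antagonists and a pair of type I receptors.

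**Figure D1:**
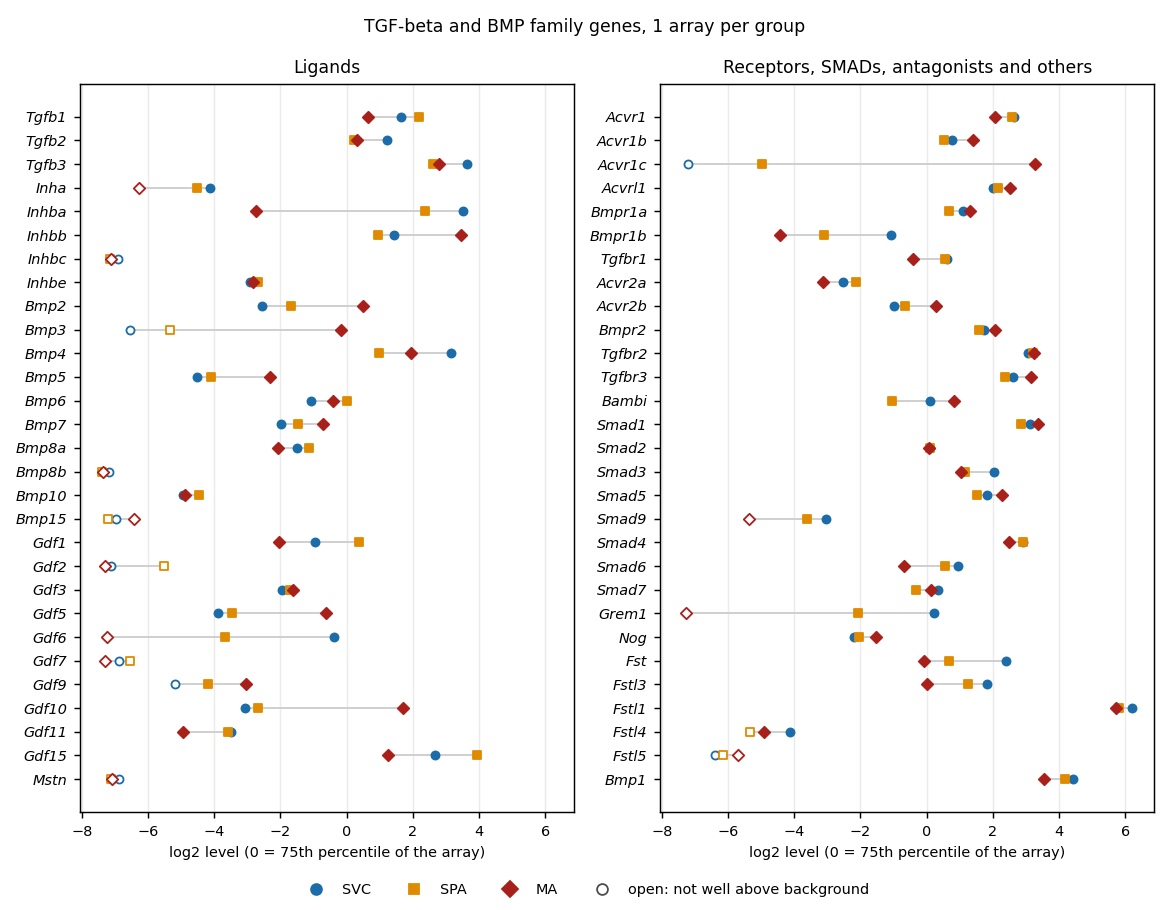
Log2 level of the members (x axis, 0 is the 75th percentile of the array) in SVC (circles), SPA (squares) and MA (diamonds), 1 array each, with open symbols where the probe was not well above background. The widest gaps are those of Acvr1c, Grem1, Gdf6, Bmp3 and Inhba, while Tgfbr2, Smad2 and Smad4 lie close together.

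In the comparison of SPA with SVC, 3 of the 51 genes that could be compared passed 2-fold upwards in SPA, namely Bmp6, Gdf1 and Gdf15, which compares with 3.9% of all genes. Lower by at least 2-fold in SPA were 8 genes, against 3.25% of all genes. These were the ligand genes Tgfb3, Inhba, Bmp4 and Gdf6, the receptor genes Bmpr1b and Bambi, and the antagonist genes Grem1 and Fst. The normexp background correction, an alternative that adds an offset and so draws dim signals together, put the log2 ratio at -2.08 for Gdf6 and -1.31 for Bmpr1b, in place of -3.31 and -2.01. The median log2 ratio of the members was -0.18, with 0.07 over all genes. Among the marker lists, mesothelial markers summed to 26.9 in SVC and 6.96 in SPA and smooth muscle markers to 726 and 329, and their part in these ratios was not tested.

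MA over SPA gave 10 members at least 2-fold higher, beside 15.8% of all genes, and 11 members at least 2-fold lower, beside 17.9% of all genes, with 52 members compared. Their shares were 19.2% and 21.2%, near the background in both directions. With the normexp correction the log2 ratios of MA over SPA were smaller for the genes dim in SPA or MA, at 2.65 for Bmp3, 3.49 for Gdf10, 1.83 for Gdf5, -1.11 for Grem1 and -0.37 for Gdf6. The median log2 ratio was 0.05 over the members and -0.07 over all genes. MA over SVC gave 11 members higher, beside 17.3% of all genes, and 15 lower, beside 18% of all genes. The normexp correction put its log2 ratios at 5.99 for Acvr1c, -5.19 for Inhba, -2.88 for Grem1, 2.69 for Bmp3, -2.45 for Gdf6 and 2.30 for Bmp2. Past 5-fold were 6 members upwards and 4 downwards in MA over SPA, beside 5.49% and 3.98% of all genes. In MA over SVC these were 6 and 5, beside 5.74% and 3.97% of all genes. The 3 comparisons share arrays, so a gene that stands apart on 1 array enters a pair of them. Genes of the cell cycle summed to 74.5 in SVC, 45 in SPA and 5.52 in MA. Mesothelial markers summed to 6.96 in SPA and 20.7 in MA, and smooth muscle markers to 329 and 45.2. The part of dividing, endothelial, blood, mesothelial or smooth muscle cells in the ratios to MA was not tested.

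**Figure D2:**
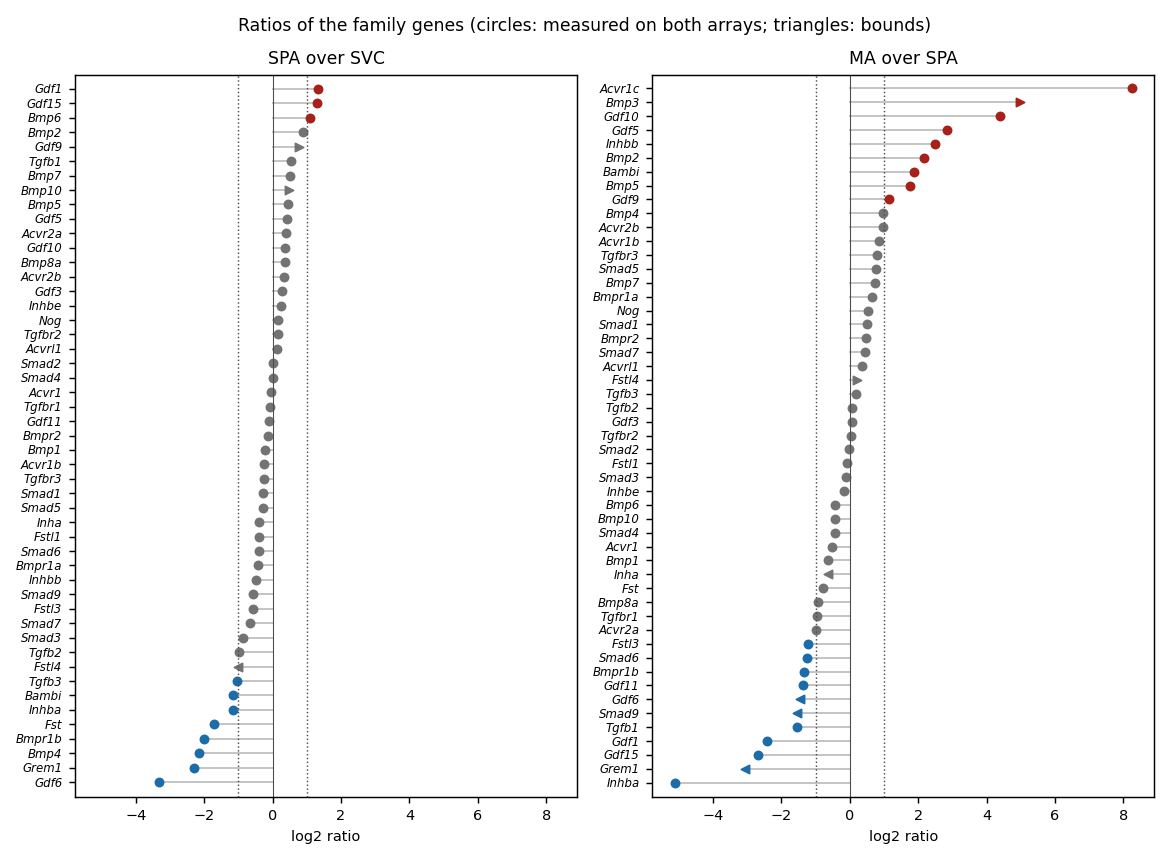
Log2 ratios of members for SPA over SVC (left) and MA over SPA (right), sorted, with dotted lines at 2-fold. Circles mark genes measured on both arrays, triangles mark bounds, and the right panel reaches from -5.11 for Inhba to 8.24 for Acvr1c.

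**Figure D3:**
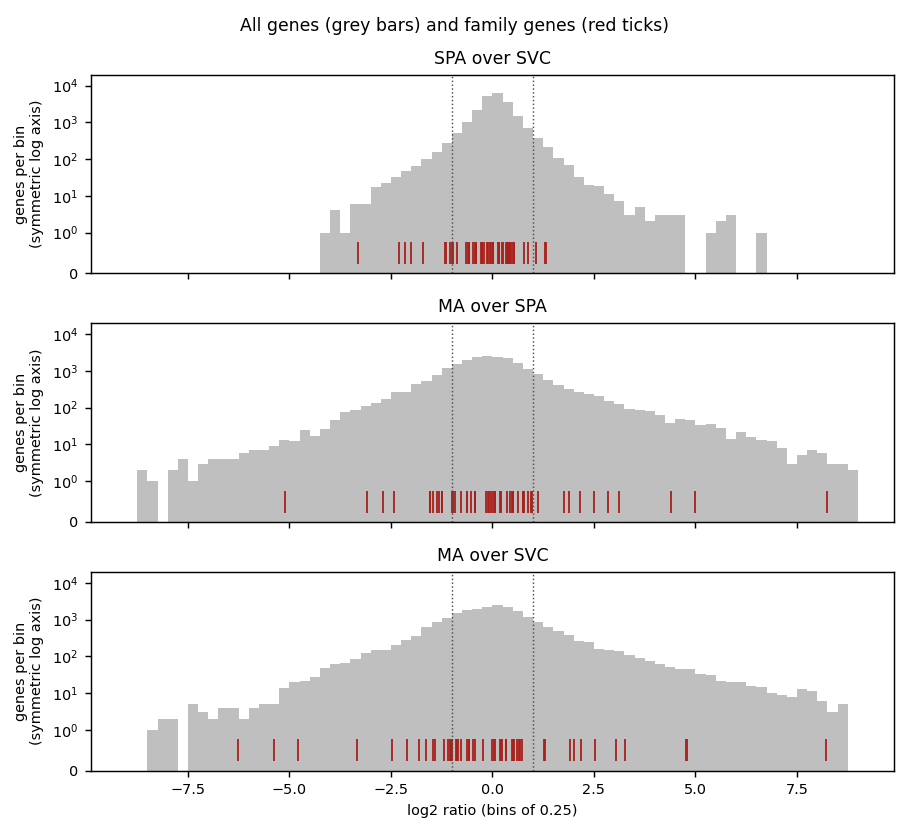
Number of genes per bin of log2 ratio over all genes (grey, symmetric log axis) with the members as red ticks, for each of the 3 comparisons. The members spread over much of the range of all genes, and SPA over SVC is the narrowest of the 3.

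Activins are dimers of the beta subunits that Inhba and Inhbb encode, and these 2 subunits differed in opposite directions between MA and the cultured fractions. Inhba, the beta A subunit of activin A, had log2 levels of 3.52 in SVC, 2.36 in SPA and -2.75 in MA. Its signal was 2.23-fold lower in SPA than in SVC, and in MA it was 34.6-fold lower than in SPA and 77.3-fold lower than in SVC. Inhbb, the beta B subunit, had log2 levels of 1.43 in SVC, 0.94 in SPA and 3.44 in MA. It was therefore highest in MA, 5.66-fold above SPA and 4.05-fold above SVC, while SPA and SVC lay within 1.4-fold. The study had listed Inhbb from these same arrays, so its ratio here is no independent evidence. Inhba was read in MA at a dim but measured spot, and the normexp background correction put its log2 ratio of MA over SPA at -4.07. Inha, the inhibin alpha subunit that pairs with either beta subunit, was dim, with log2 levels of -4.12 in SVC and -4.52 in SPA and no reading well above background in MA. Inhbe, a further beta subunit, lay between -2.91 and -2.68 on all arrays.

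Follistatin, the product of Fst, binds activins and keeps them from their receptors. Fst had log2 levels of 2.39 in SVC, 0.68 in SPA and -0.09 in MA. Relative to SVC it was 3.27-fold lower in SPA and 5.6-fold lower in MA. Between MA and SPA it differed by 1.71-fold. Fstl3, a related activin-binding protein, had log2 levels of 1.83, 1.24 and 0.01 in the same order and was 2.35-fold lower in MA than in SPA. Inhba, Fst and Fstl3 were each highest in SVC and lowest in MA. The probes at which Inhba and Fst were read are shown because the ratios of this ligand and its inhibitor rest on them alone. In mm9 they match chr13:16118634-16118693 on the plus strand and, across an intron, chr13:115244692-115245364 on the minus strand.
Inhba: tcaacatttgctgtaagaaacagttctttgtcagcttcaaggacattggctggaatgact
Fst: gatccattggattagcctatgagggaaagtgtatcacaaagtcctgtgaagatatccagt

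Of the TGF-beta ligands, Tgfb1 had log2 levels of 1.65 in SVC, 2.17 in SPA and 0.64 in MA. It was 2.9-fold lower in MA than in SPA, and its other probe gave nearly the same log2 ratio, -1.52 against -1.53. Against SVC its signal in MA was 2.02-fold lower, which 3 of the alternatives put short of 2-fold. Tgfb3 had log2 levels of 3.65, 2.61 and 2.78 in SVC, SPA and MA, and was 2.06-fold lower in SPA than in SVC. Tgfb2, at 1.21, 0.23 and 0.30, missed 2-fold in SPA with a ratio of 1.97-fold. SVC thus had the highest level of Tgfb2 and Tgfb3, and SPA the highest level of Tgfb1. Latent TGF-beta is held in the matrix by some LTBP proteins, and LTBP genes are described with the other regulators.

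Bmp4 and Bmp2, the BMPs best known in adipocyte commitment, had unlike orders over the fractions. Bmp4 had log2 levels of 3.14 in SVC, 0.98 in SPA and 1.95 in MA, and was 4.47-fold lower in SPA than in SVC. A second probe for Bmp4 gave log2 levels of 0.94, -1.25 and -0.12, and so the same order and nearly the same log2 ratio of SPA over SVC, -2.20 against -2.16. Bmp2 had log2 levels of -2.55 in SVC, -1.67 in SPA and 0.48 in MA, so it was 4.47-fold higher in MA than in SPA and 8.21-fold higher than in SVC. SPA was lowest in Bmp4 and stood between SVC and MA in Bmp2. The second Bmp4 probe is shown because it is a second reading of the lower level in SPA, and it matches chr14:47003802-47003861 on the minus strand in mm9.
Bmp4: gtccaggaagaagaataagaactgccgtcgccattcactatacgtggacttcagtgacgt

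Bmp3, which encodes a BMP known to oppose the action of other BMPs, was measured well above background only in MA, where its log2 level was -0.15. It was at least 31.6-fold higher in MA than in SPA and at least 27.8-fold higher than in SVC. Each of its 3 probes was well above background in MA and on no other array, and the other 2 gave log2 bounds of 4.26 and 3.63 over SPA. Bmp5 was dim, at log2 levels of -4.52, -4.08 and -2.33 in SVC, SPA and MA, and its 3.38-fold higher signal in MA than in SPA did not hold under the normexp correction (log2 0.85). Bmp6 in SPA exceeded SVC 2.12-fold, at log2 levels of 0.01 and -1.07, with MA at -0.41, and the normexp correction put its log2 ratio at 0.90. Bmp7 had log2 levels of -1.97, -1.45 and -0.71 in the 3 fractions and was 2.4-fold higher in MA than in SVC, which the normexp correction put at log2 0.92, and the local background of its spot was marked as outlying in both. Bmp8a and Bmp10 differed by less than 2-fold wherever they could be compared.

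Among the GDFs, Gdf10 and Gdf5 were higher in MA, and Gdf6, Gdf15 and Gdf1 were lower. Gdf10, also known as BMP3B and the nearest relative of Bmp3, had log2 levels of -3.06 in SVC, -2.68 in SPA and 1.72 in MA, a 21.2-fold higher signal in MA than in SPA. Its other probe was well above background only in MA, at -4.62, and gave a log2 bound of 0.52, so that the median over both probes was 2.46. Gdf5, known from joint and cartilage development, had log2 levels of -3.88, -3.46 and -0.61 and was 7.23-fold higher in MA than in SPA, with a log2 ratio of 2.55 at the other probe against 2.85. Bmp3 and Gdf10, the pair of close relatives, were thus each far higher in MA than in either cultured fraction. Gdf9 was dim and 2.19-fold higher in MA than in SPA, at log2 levels of -3.04 and -4.17, a ratio that the normexp correction put at log2 0.51.

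Gdf6, a BMP-like ligand of skeletal and eye development, had log2 levels of -0.37 in SVC and -3.68 in SPA and was not well above background in MA. This was a 9.94-fold lower signal in SPA than in SVC, the lowest ratio of any member in that comparison and it was the 1 member past 5-fold there, beside 0.353% of all genes lower and 0.322% higher. In MA it was at least 27.5-fold lower than in SVC. Gdf15, a stress-induced ligand that signals through the receptor GFRAL rather than through SMADs, had log2 levels of 2.66, 3.95 and 1.25 in SVC, SPA and MA. It was highest in SPA, 2.44-fold above SVC and 6.48-fold above MA. Gdf1 showed the same order, with log2 levels of -0.94, 0.37 and -2.05, but the accessions of its probe also name Cers1, a ceramide synthase gene that shares a transcript with Gdf1, and the 2 cannot be told apart here. Gdf11, the close relative of myostatin, was dim throughout and 2.57-fold lower in MA than in SPA, which the normexp correction put at log2 -0.31.

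Gdf3 gave unlike readings at its 2 probes. At the brighter probe its log2 levels were -1.96, -1.69 and -1.62 in SVC, SPA and MA, within 1.26-fold of each other. At the other probe they were -3.68 and -2.47 in SVC and SPA, with no reading well above background in MA, so that SPA was higher than SVC by a log2 ratio of 1.21 and MA lower than SPA by a log2 bound of -2.68. SPA was thus above SVC at both probes, by unlike amounts, and the probes differed on MA. The dimmer probe is shown, and it matches chr6:122556340-122556399 on the minus strand in mm9.
Gdf3: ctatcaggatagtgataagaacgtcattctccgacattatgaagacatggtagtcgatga

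The type I receptors held the highest ratio of all members. Acvr1c encodes ALK7, the type I receptor for activin B, GDF3 and nodal, which is known to be abundant in white adipocytes and to restrain lipolysis there. In SVC its probe had only a bound, and it had log2 levels of -4.97 in SPA and 3.27 in MA. Its signal was 303-fold higher in MA than in SPA and at least 299-fold higher than in SVC, and the normexp correction put the log2 ratio of MA over SPA at 5.89 instead of 8.24. No fold is given for SPA over SVC, because the SPA level lay just below the lowest level that counts as measured in SVC, -4.95. The local background of its spot was marked as outlying in SVC and in MA, so its ratios had no value where such spots were left out. The study had listed Acvr1c from these arrays as 5-fold higher in SPA than in SVC, the comparison that has no fold here. Acvr1c and Inhbb, which encode a receptor and a subunit of its ligand activin B, were both highest in MA.

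Bmpr1b, the type I BMP receptor also called ALK6, had the opposite order, with log2 levels of -1.09 in SVC, -3.10 in SPA and -4.43 in MA. Its signal was 4.03-fold lower in SPA relative to SVC and 2.51-fold lower in MA relative to SPA, of which the second step did not hold under the normexp correction (log2 -0.40). The type I receptors Acvr1, Acvr1b, Acvrl1 and Bmpr1a lay within 2-fold in every comparison at the probes read. Acvrl1, known from endothelial cells, differed by 1.28-fold between MA and SPA at a spot whose local background was marked as outlying in MA, and its other probe gave a log2 ratio of 0.79. Tgfbr1, the TGF-beta type I receptor, had log2 levels of 0.62, 0.55 and -0.42 and was 2.05-fold lower in MA than in SVC, or log2 -0.92 with the normexp correction. At a second probe for Tgfbr1 the log2 ratio of MA over SPA was -1.09, against -0.97 at the probe read.

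All 4 type II receptors among the members lay within 2-fold between MA and SPA and between SPA and SVC. Amhr2, a type II receptor whose symbol the choice of members did not cover, was 17.5-fold higher in MA than in SPA. It is described with the receptor partners. Tgfbr2, the TGF-beta type II receptor, had log2 levels of 3.06, 3.21 and 3.23 in SVC, SPA and MA, and Bmpr2 had 1.73, 1.59 and 2.06. Acvr2a and Acvr2b, the activin type II receptors, came closest to 2-fold between MA and SPA, Acvr2a lower by just under 2-fold and Acvr2b higher by 1.94-fold. In each case another probe of the gene gave the opposite direction, with log2 ratios of 0.47 for Acvr2a and -0.51 for Acvr2b, so no direction is given for them. Acvr2b was 2.44-fold higher in MA than in SVC at the probe read, and the median over its probes was log2 0.70. The co-receptor gene Tgfbr3, which encodes betaglycan, lay within 1.73-fold throughout. Bambi, which encodes a receptor that lacks the kinase, had log2 levels of 0.10, -1.06 and 0.82, lowest in SPA, 2.22-fold below SVC and 3.68-fold below MA. Its lower level in SPA than in SVC was just short of 2-fold under the normexp correction (log2 -0.95).

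Of the 8 SMAD genes, 0 passed 2-fold between SPA and SVC, beside 3.9% of all genes higher and 3.25% lower. In MA 2 of them were lower than in SPA, beside 17.9% of all genes. The common partner Smad4 had log2 levels of 2.90, 2.92 and 2.48 in SVC, SPA and MA, and Smad2 had 0.09, 0.11 and 0.08. Smad1 and Smad5, which carry the BMP signal, lay within 1.68-fold. Smad3 missed 2-fold, being 1.83-fold lower in SPA and 1.99-fold lower in MA relative to SVC, with log2 levels of 2.02, 1.15 and 1.03, and its other probe gave log2 ratios of -0.84 and -0.94. Smad6, the inhibitory SMAD of the BMP branch, had log2 levels of 0.96, 0.55 and -0.69 and was 2.36-fold lower in MA than in SPA. Smad7, which inhibits both branches, lay within 1.59-fold at the probe read. Smad9 was dim, at -3.04 and -3.62 in SVC and SPA, and at least 2.89-fold lower in MA than in SPA, which the normexp correction reduced to log2 -0.27.

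Of the BMP antagonists, Grem1 differed most between SVC and SPA. Grem1, gremlin 1, had log2 levels of 0.22 in SVC and -2.07 in SPA and was not well above background in MA. It was 4.9-fold lower in SPA than in SVC, and in MA at least 8.46-fold lower than in SPA and at least 41.5-fold lower than in SVC. SVC thus had the highest level of Grem1 and MA the lowest. Noggin, encoded by Nog, lay within 1.61-fold, from -2.21 in SVC to -1.52 in MA. Fstl1, a secreted glycoprotein of mesenchymal cells, had log2 levels of 6.20, 5.80 and 5.72, and Fstl4 was dim, its bound for SPA below SVC lying at 2-fold.

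Bmp1 is named as a BMP but encodes the protease that cleaves procollagens and frees BMPs from chordin. It had log2 levels of 4.41, 4.19 and 3.56 in SVC, SPA and MA and lay within 1.8-fold. Its 3 probes differed in the ratio of MA over SPA, with log2 ratios of -0.63 at the probe read, -1.71 and -0.16. Over the 19 member genes that had more than 1 probe measured in MA and SPA, 24 pairs of probes differed by a median of 0.32 in that log2 ratio, and 3 pairs by more than 1. For SPA over SVC the median difference over 24 pairs was 0.14, and 0 pairs differed by more than 1.

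**Figure D4:**
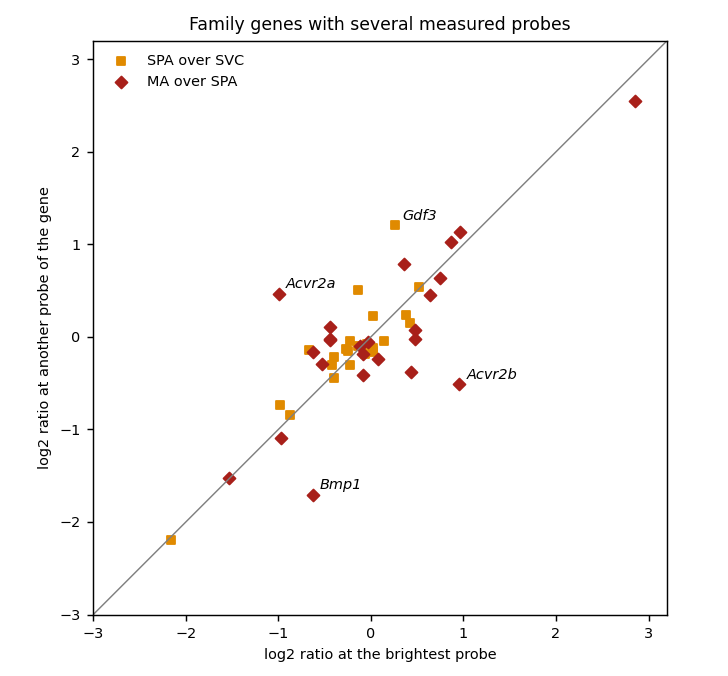
Log2 ratio at the brightest probe of a gene (x axis) against that at another measured probe (y axis), for SPA over SVC (squares) and MA over SPA (diamonds), with the line of equality. Most pairs lie near the line, and Gdf3, Acvr2a, Acvr2b and Bmp1 are marked because their probes differ by more than 0.9.

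Beyond the members, 28 genes were read as a list of extracellular regulators, most of which bind, store or free these ligands outside the cell. It also held the ligand genes Nodal, Amh, Lefty1 and Lefty2, whose symbols the choice of members did not cover. Between SPA and SVC, 2 of the 24 that could be compared passed 2-fold upwards and 3 downwards, and between MA and SPA 7 were higher and 7 lower. The 2 upwards in SPA, Chrdl1 and Chrdl2, were both ratios against a bound in SVC. Over all genes the shares were 3.9% and 3.25% for SPA over SVC and 15.8% and 17.9% for MA over SPA. Chrdl1, a chordin-like BMP antagonist, had log2 levels of -3.43 in SPA and 2.61 in MA, a log2 ratio of 6.04. The Ltbp genes are named for latent TGF-beta binding proteins, and no binding of TGF-beta was measured here. Ltbp4 had log2 levels of 0.78, 0.80 and 4.94 in SVC, SPA and MA, and Ltbp2 had 6.77, 6.04 and 1.16. Fmod, fibromodulin, was also higher in MA, by a log2 ratio of 4.16 over SPA, and Bmper, a BMP-binding protein, was lower by -2.15. Chrdl1 and Fmod were dim in SPA, Fmod at -3.88. The alternatives were read for the median of this list and not for its single genes. The list therefore held genes at both ends, with a median log2 ratio of MA over SPA of 0.27 against -0.07 over all genes.

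Among 10 genes for co-receptors and receptor partners, 9 could be compared. Of these, 0 passed 2-fold between SPA and SVC, beside 3.9% of all genes higher and 3.25% lower. In MA 3 were higher than in SPA, beside 15.8% of all genes. Amhr2, the type II receptor for anti-Mullerian hormone, had log2 levels of -3.41, -3.63 and 0.50 in SVC, SPA and MA. It was dim in SVC and SPA, and the alternatives were not read for it alone. The other 2 were Rgma and Tdgf1, BMP and nodal co-receptors, with log2 ratios of 1.28 and 1.27. Eng, endoglin, known from endothelial cells, had log2 levels of 1.99, 1.74 and 1.76. Of 15 intracellular regulators, 1 passed 2-fold upwards from SVC to SPA and 1 downwards, beside 3.9% and 3.25% of all genes. These were Nedd4l, a ubiquitin ligase that acts on SMADs (log2 1.56), and Tgif2, a SMAD corepressor (log2 -1.44). Between MA and SPA, Pmepa1 and Ppm1a were higher and Smurf1, Smurf2, Tgif1, Tab1 and Nedd4l lower, beside 15.8% and 17.9% of all genes.

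Of 19 genes known to respond to TGF-beta, 0 passed 2-fold upwards in SPA and 7 downwards, with a median log2 ratio of -0.73 against 0.07 over all genes, of which 3.25% were lower by 2-fold. The lower genes were Thbs1, Col1a1, Ctgf, Col3a1, Acta2, Col1a2 and Tagln, with log2 ratios from -1.91 for Thbs1 to -1.01 for Tagln. Ctgf, a matricellular growth factor, had log2 levels of 5.75 in SVC, 4.25 in SPA and 1.99 in MA. Acta2, smooth muscle actin, had 8.29, 7.08 and 4.38. Acta2 and Tagln are also smooth muscle markers, and Col1a1 a fibroblast marker. Without Col1a1 the other 7 fibroblast markers summed to 120 in SVC and 102 in SPA. Of these, Dpp4 and Lum were past 2-fold lower in SPA (log2 -1.56 and -1.59), and 0 were past 2-fold higher. Without Acta2 and Tagln the other 3 smooth muscle markers summed to 30.8 and 2.8, a fall that came from Cnn1. Cnn1 had log2 levels of 4.92 in SVC and 1.16 in SPA. Myh11 differed by a log2 ratio of only -0.28, and Myocd was dim, with only a bound in SVC and -4.73 in SPA. The part of such cells in these ratios was not tested.

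Between MA and SPA the TGF-beta responsive genes split, with 4 higher and 7 lower, where 15.8% of all genes were higher and 17.9% lower. Lox, a collagen cross-linking enzyme, and Ltbp2 were the lowest, with log2 ratios of -4.11 and -4.88, and Col3a1 was the highest, with 2.87. The median log2 ratio of MA over SVC was -1.10, with 2 genes higher and 11 lower, where 17.3% of all genes were higher and 18% lower. Smooth muscle markers summed to 329 in SPA and 45.2 in MA, or to 2.8 and 2.08 without Acta2 and Tagln. The part of such cells in the ratios to MA was not tested.

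Among 9 genes known to respond to BMPs, 1 was at least 2-fold lower in SPA than in SVC and 0 higher, beside 3.25% and 3.9% of all genes. That gene was Atoh8, a transcription factor, with log2 levels of 0.64, -0.51 and -2.65 in SVC, SPA and MA. Id1, the classical BMP target, had 3.12, 2.95 and 2.52 and stayed within 2-fold. Id3 had 3.86, 3.01 and 5.16, highest in MA, whereas Id2 had 2.88, 3.08 and 0.68, lowest in MA. Hey1, a target of BMP and Notch signals, had log2 levels of -2.11 in SPA and 0.84 in MA. Endothelial markers were also higher in MA, and the part of endothelial cells in this ratio was not tested. In all, 2 of the 9 genes were higher and 3 lower in MA than in SPA, beside 15.8% and 17.9% of all genes.

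**Figure D5:**
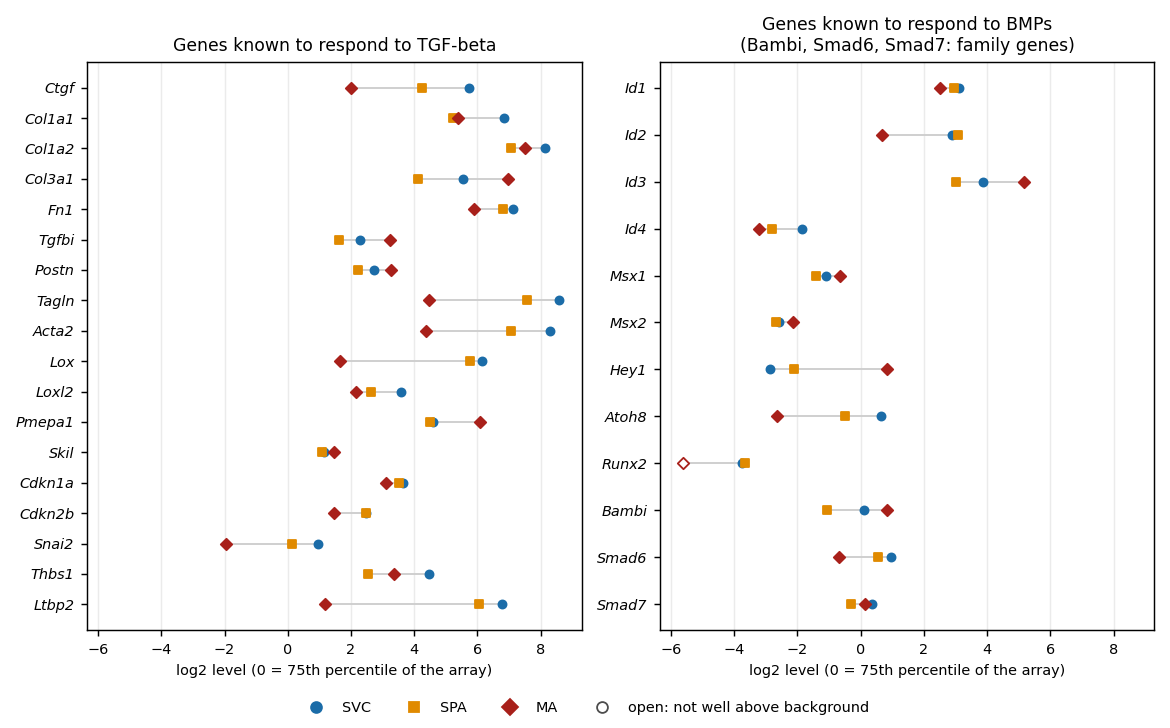
Log2 levels of listed genes known to respond to TGF-beta (left) and to BMPs (right) in SVC, SPA and MA, with open symbols where a probe was not well above background. The right panel also holds the members Bambi, Smad6 and Smad7, which are not on the list of BMP-responsive genes. In the left panel 7 genes are at least 2-fold lower in SPA than in SVC, and Tagln, Acta2, Lox and Ltbp2 are lowest in MA.

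The promoters of 4 members with wide gaps are shown, chosen after their values were seen, as the sequence context of a pair that was lower in MA (Inhba, Grem1) and a pair that was higher (Inhbb, Acvr1c). Each is the RefSeq stretch from 250 bases before the start to 50 bases after it in GRCm38.p6, printed along the gene's strand. They lie at chr13:16011601-16011900 (plus), chr2:113758599-113758898 (minus), chr1:119422199-119422498 (minus) and chr2:58357709-58358008 (minus), the last being 1 of 2 listed for Acvr1c. Capitals mark 4 motifs searched on both strands, which were GGCGCC and CAGAC, bound by SMAD proteins, TTGCNNAA, as in C/EBP sites, and the DR1 repeat bound by PPARG with RXR.
Inhba: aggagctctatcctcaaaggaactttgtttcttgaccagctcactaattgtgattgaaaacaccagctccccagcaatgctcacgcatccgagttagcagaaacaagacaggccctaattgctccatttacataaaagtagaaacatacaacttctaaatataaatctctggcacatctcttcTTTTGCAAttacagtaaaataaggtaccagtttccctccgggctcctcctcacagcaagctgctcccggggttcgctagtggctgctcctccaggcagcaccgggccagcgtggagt
Grem1: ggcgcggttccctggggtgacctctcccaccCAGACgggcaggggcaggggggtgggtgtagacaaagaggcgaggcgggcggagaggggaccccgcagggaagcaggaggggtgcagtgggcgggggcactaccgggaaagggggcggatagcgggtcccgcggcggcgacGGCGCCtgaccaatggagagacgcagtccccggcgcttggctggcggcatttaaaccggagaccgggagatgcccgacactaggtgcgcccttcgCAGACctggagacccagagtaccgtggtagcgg
Inhbb: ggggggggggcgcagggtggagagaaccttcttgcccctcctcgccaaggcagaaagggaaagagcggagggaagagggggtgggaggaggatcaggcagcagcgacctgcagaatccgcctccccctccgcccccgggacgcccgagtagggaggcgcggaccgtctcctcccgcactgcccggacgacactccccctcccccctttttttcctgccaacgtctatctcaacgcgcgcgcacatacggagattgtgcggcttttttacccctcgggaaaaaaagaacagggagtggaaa
Acvr1c: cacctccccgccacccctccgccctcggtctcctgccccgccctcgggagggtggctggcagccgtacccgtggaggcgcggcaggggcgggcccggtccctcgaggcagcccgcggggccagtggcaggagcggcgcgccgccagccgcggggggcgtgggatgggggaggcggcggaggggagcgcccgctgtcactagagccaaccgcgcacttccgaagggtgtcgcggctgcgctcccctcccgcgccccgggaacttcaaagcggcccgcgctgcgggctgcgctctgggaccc

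Grem1 held GGCGCC once and CAGAC at 2 places, Inhba held TTGCNNAA once, and no searched motif was found in the windows of Inhbb and Acvr1c. Of 32851 RefSeq promoters of this length, 11.9% held GGCGCC, 49.6% CAGAC, 10.8% TTGCNNAA and 0.0396% the DR1 repeat. The 50 promoters listed for 41 of the member genes held GGCGCC in 10 cases and CAGAC in 26. The windows differed in base composition, from 47.67% GC with 7 CpG in Inhba to 64.33% with 23 in Inhbb, 70.67% with 28 in Grem1 and 79% with 39 in Acvr1c, where all promoters had medians of 52.67% GC and 7 CpG. A match describes the letters of the window and is not evidence of binding.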

How the data were processed

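Gene expression was measured on 1 Agilent 1-colour array each of SVC, SPA and MA, on 1 slide and in 1 scan, and groups were taken from the sample records. The authors deposited, per array, the intensity of each spot as written by Agilent Feature Extraction 10.7.3.1 (named in the submitters' processing notes), meaning the background-subtracted processed signal, and a table with the ratio of that signal to 1 constant per array. Control spots and 75 to 129 outlier spots per array were left out. The log2 processed signal minus that of the array's 75th percentile was the level, spots of a probe were averaged, and the probe of highest mean level stood for its gene. Probes not well above background were set to the higher of their own level and the lowest level well above background on that array. Members of the TGF-beta and BMP families passed where a ratio or its bound was at least 2-fold, and any member could be named. Members and lists were chosen with earlier results of these data known. The lists were 5 of regulators and targets and 9 of markers (adipocyte, fibroblast, macrophage, endothelial, mesothelial, smooth muscle, lymphocyte, erythrocyte and cell cycle genes). All 8 fibroblast markers summed to 235 in SVC, 139 in SPA and 315 in MA. This list split between MA and SPA, with 4 at least 2-fold higher in MA (Dcn, Dpp4, Cd34 and Lum) and 2 lower (Pdgfra and Pdgfrb). Macrophage markers summed to 548 in SVC, 602 in SPA and 196 in MA, and lymphocyte markers to 6.2, 6.8 and 7.82. The macrophage sum hides a split. C1qa and C1qb had log2 ratios of -3.19 and -2.48 for SPA over SVC, where 0 macrophage markers were at least 2-fold higher. For MA over SPA they had 3.50 and 3.62, while 3 others, Adgre1, Cd68 and Lyz2, were at least 2-fold lower. The lists' genes past 2-fold were named by the size of their ratio, up to 6 per list and comparison, with others as examples chosen after their values were seen. The alternatives numbered 10, and they were the normexp correction (offset 50), quantile normalization, another set of scaling probes, the deposited ratios, 2 filters on dim probes, 2 rules for probes of a gene, leaving out spots of outlying local background, and a 5-fold threshold. Of the members' 98 probes, 83 had an accession in RefSeq, of which 82 named the same gene alone. Positions of probes follow the mm9 annotation of the arrays. Python 3.11.15, numpy 2.4.6, pandas 2.3.3 and matplotlib 3.10.9 were used, with limma 3.58.1 in R 4.3.3 for normexp, and the ratio and bound rules were tested on simulated data. Values of some genes are not reported here and are left out of the plots that name genes, while counts and medians include them.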

Additional observations from a re-analysis of the deposited data

How the results depend on the processing

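Of 58 ratios of members past 2-fold, 40 stayed past it under every alternative that gave them a value, 18 fell short under at least 1, and 0 reversed. By their design, the 2 filters on dim probes and the rule that read the probe with the largest ratio could not make a ratio smaller. The 5-fold threshold was not applied to single ratios. The normexp background correction alone took 16 below 2-fold, mostly of dim genes, and left 7 members lower in MA than in SPA, in place of 11, and 9 lower in MA than in SVC, in place of 15. Over all genes these counts went from 4297 to 2756 and from 4229 to 2915. Without the filter on dim probes SPA over SVC had 7 members higher, in place of 3, Acvr1c, Bmp3, Gdf2 and Gdf9 being the added genes, while over all genes the count went from 883 of 22663 to 2145 of 37073. At 5-fold, 0 members were higher and 1 lower for SPA over SVC, 6 higher and 4 lower for MA over SPA, and 6 higher and 5 lower for MA over SVC. The cause was not tested. The other alternatives kept each count within 1.5 times. Leaving out spots of outlying local background gave a value to 55 of the 58 ratios, and those of Acvr1c and Bmp7 had none. It also removed the reading of Bmp5 at its brightest probe, and the log2 ratio of Bmp5 for MA over SVC was then 0.55. Dim genes are limited by the lowest processed signal that counts as well above background, which was 10.3 in MA, 12.5 in SPA and 13.9 in SVC. No paired analysis was possible because each group has 1 array.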
